A study of Mus musculus with 23 samples.

Results

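The cerebellum and the hippocampus of WT mice were compared gene by gene across 7 expression arrays, 3 of cerebellum and 4 of hippocampus, out of the 23 arrays of the series. Of the 16593 gene symbols with a probe, 9810 were tested, because a probe for them was detected in at least 3 of the 7 arrays. The cerebellum is built mainly of small glutamatergic granule cells, of Purkinje cells, which are the GABAergic output neurons of its cortex, of molecular layer interneurons and of Bergmann glia. The hippocampus is built around the glutamatergic pyramidal cells of areas CA1 to CA3 and the granule cells of the dentate gyrus, with local GABAergic interneurons. The cerebellum develops from the hindbrain and the hippocampus from the forebrain, and each keeps a set of regional transcription factors in adult life.

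All mice were male, of the C57BL/6 background strain, 3 to 5 months old and naïve, and were fasted overnight and killed under isoflurane anesthesia between late morning and early afternoon. The WT mice carried no deletion. They were compared, where stated, with *Bhlhe40* KO mice, which lack the gene of a basic helix-loop-helix transcription factor and were backcrossed to the same strain. RNA of each dissected tissue was hybridized to an Illumina mouse BeadChip, with 1 array for each RNA sample. Every WT mouse gave a hippocampus array, and 3 of the 4 also gave a cerebellum array, so that the tissues of a mouse were paired in 3 mice. The 4th WT cerebellum array was removed by the authors as an outlier and was not analysed here. Whole tissue was used, so fewer cells of a type and less RNA per cell cannot be told apart.

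The arrays had median bead signals of 164.4 to 218.5, and 50.9% to 55.5% of the probes were detected. In the log2 signals, arrays of different tissues correlated at 0.948 to 0.952, cerebellum arrays at 0.993 to 0.994 and hippocampus arrays at 0.994 to 0.996. A first principal component with 88.5% of the variance parted the tissues. *Bhlhe40*, the deleted gene, read 3662 to 3919 in WT hippocampus and 3264 to 3955 in WT cerebellum against 244.9 to 361.8 in the 8 KO arrays of these tissues, and it did not pass the test between the WT tissues (log2 difference -0.05 ± 0.09, adjusted p = 0.661). The summed signal of 12 choroid plexus genes, markers of the epithelium that secretes cerebrospinal fluid, varied between arrays. It ran from 9510 to 56401 among the WT hippocampus arrays and from 25661 to 38496 among the WT cerebellum arrays. Values below are normalised signals, the Z normalised log2 signals of an array returned to the scale of the bead intensity. Differences are cerebellum minus hippocampus on the log2 scale, with the standard error of the limma fit, and p was adjusted over all 9810 genes.

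The tissues differed at many genes. In all, 5408 genes passed at an adjusted p under 0.05, which was 55.1% of those tested. Of these, 2718 (27.7%) were higher and 2690 (27.4%) were lower in cerebellum. Most differences were small, with a median size of 0.49 among the genes that passed and a median of 0.01 over all genes. A difference of more than 2-fold was found for 389 genes higher (3.97%) and 505 genes lower (5.15%) in cerebellum. More than 8-fold were 25 genes higher and 45 lower. The arrays of the tissues did not overlap for 5221 genes (53.2%). Where a probe was detected in no array of the dimmer tissue, the fold is given as a lower bound, set by the lowest signal detected in each of those arrays, and its fitted difference serves only to rank it.

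The largest differences toward cerebellum were in *Pcp2*, *Cbln1* and *En2*. *Pcp2*, which encodes Purkinje cell protein 2, read 11239, 10511 and 15393 in the cerebellum arrays and 156, 147, 152 and 144 in the hippocampus arrays, where it was not detected. Its level was at least 66.1-fold higher in cerebellum (adjusted p = 6.41e-21). *Cbln1*, the granule cell ligand that bridges parallel fibres and Purkinje cells, read 24944, 27369 and 31330.0 in cerebellum. In hippocampus it read 577, 455, 495 and 763, a difference of 49.2-fold (log2 5.62 ± 0.13, adjusted p = 1.12e-19). *En2*, a homeobox factor of the midbrain-hindbrain boundary and its derivatives, read 8411, 10457 and 9409.5 in cerebellum against 218, 196, 243 and 207 in hippocampus (43.5-fold, log2 5.44 ± 0.10). For each of these 3 genes every cerebellum array stood far above every hippocampus array, though a lack of overlap was a condition for being named here.

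The other 12 genes of the 15 with the largest differences toward cerebellum were chosen under the same condition, so their lack of overlap is no result. *Chn2*, a GTPase-activating protein for Rac, read 17957 to 24659 against 979 to 1189. The zinc finger factor *Zic1*, known for granule cell progenitors, read 12508 to 16420.0 against 677 to 1265, with the hippocampus arrays of replicates 1 and 3 above the other two. *Atp2a3*, a calcium pump of the endoplasmic reticulum, read 6117 to 6875 against 383 to 439. Calcium handling and signalling were also represented by *Rgs8*, a regulator of G protein signalling found in Purkinje cells, at 10403 to 15108 against 914 to 1134. *Gdf10*, a growth factor of the transforming growth factor beta family made by Bergmann glia, read 6734 to 7219 against 476 to 709. *Col18a1*, a basement membrane collagen, read 3767 to 3904 against 245 to 375, and the homeobox gene *Meis1* read 2369 to 3051 against 186 to 240.3. A further 5 genes were not detected in any hippocampus array. They were the GABA-A receptor subunit gene *Gabra6* (at least 9.91-fold higher), the polarity protein gene *Patj* (at least 9.93-fold), *Tfap2b*, a factor of cerebellar interneurons (at least 8.83-fold), *Dao*, which encodes the D-serine degrading enzyme D-amino acid oxidase (at least 10.2-fold), and *Lhx1*, a LIM homeobox factor of Purkinje cells (at least 9.64-fold). In WT cortex, read side by side, all 15 genes were below every cerebellum array in every cortex array. *Pcp2* read 144 to 155 and *Cbln1* 655 to 822 there.

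Among the 15 genes with the largest differences toward hippocampus were *Crym*, *Fibcd1* and *C1ql2*. *Crym*, which encodes the thyroid hormone-binding protein mu-crystallin, read 4875, 5439, 5046 and 4578 in the hippocampus arrays. In cerebellum it read 163, 194 and 174 and was detected in 1 of the 3 arrays (log2 -4.81 ± 0.10, adjusted p = 1.71e-20). *Fibcd1*, a chitin-binding receptor used as a marker of CA1, read 5228, 6082, 6442 and 6271 in hippocampus against 193, 220.4 and 232 in cerebellum, a difference of 27.9-fold. *C1ql2*, a C1q-like synaptic protein of dentate granule cells, read 4254, 4334, 4640.2 and 4584 against 183, 192 and 181 (24-fold, log2 -4.59 ± 0.09), and 1 of the 3 cerebellum arrays detected it. All 3 were thus far higher in every hippocampus array than in any cerebellum array, where a lack of overlap was again a condition of the choice.

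The other 12 of these 15 genes were chosen under the same condition of no overlap, which is thus no result. *Camk2a*, the alpha subunit of the calcium/calmodulin kinase of the postsynaptic density, read 13767 to 18690.0 in hippocampus and 711 to 879.8 in cerebellum (20.5-fold). *Camkv*, a related pseudokinase, read 5222 to 7095 against 232 to 345. *Nrgn*, which encodes the calmodulin-binding protein neurogranin, read 4398 to 5233 against 153, 181 and 350.3, and 1 of the 3 cerebellum arrays detected it. *Cpne6*, a calcium-dependent membrane-binding copine, read 14926 to 19766 against 718 to 945, and *Ptk2b*, a calcium-activated tyrosine kinase, read 3369 to 3756 against 189 to 192, with 1 cerebellum array in which it was detected. The transcription factor gene *Bcl11b* read 6196 to 8207 against 225 to 349. *Enc1*, which encodes an actin-associated kelch protein, read 11048 to 12823 against 492 to 617. *Sst*, the interneuron peptide somatostatin, read 7173 to 8739 against 309.6, 394 and 629.9, with replicate 3 the highest of the cerebellum arrays. *Crhbp*, the binding protein of corticotropin-releasing hormone, was detected in no cerebellum array and was at least 17.4-fold higher in hippocampus. *Mpped1*, *Vxn* and the sialyltransferase gene *St6galnac5* had log2 differences of -4.15, -4.11 and -4.00. The cortex arrays were above every cerebellum array for all 15 genes, and were all below every hippocampus array for 9 of them. *Fibcd1* and *C1ql2* read 483 to 712 and 301 to 331 in cortex, while *Enc1* read 11580.5 to 14088 and *Nrgn* 5753 to 6815.

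**Figure D1:**
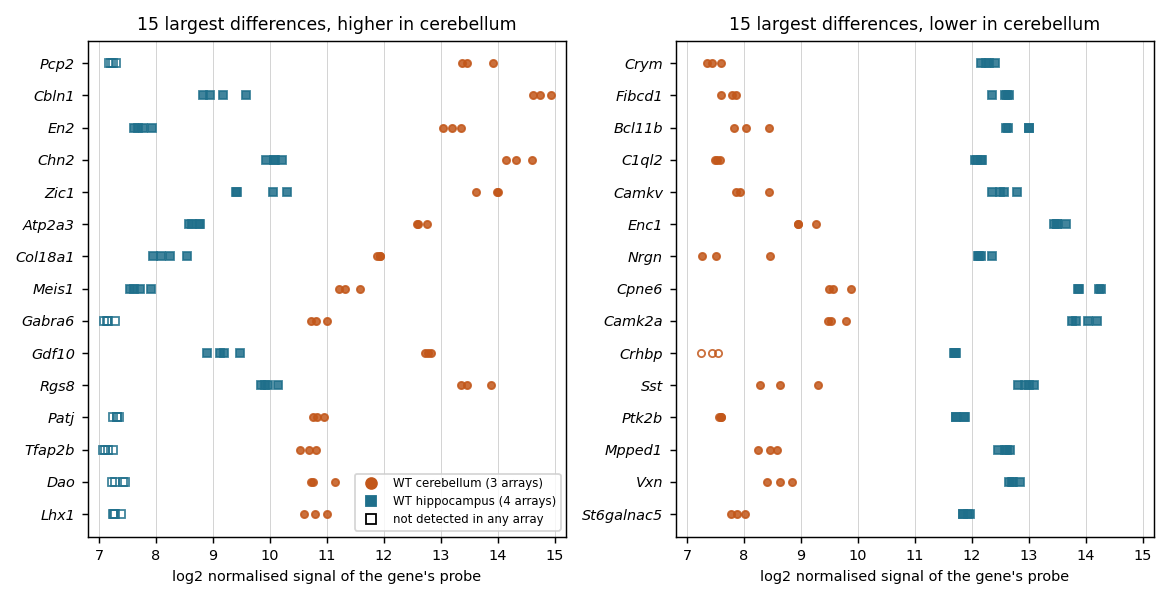
Log2 normalised signal (x axis) in each WT array for the 15 genes with the largest difference in each direction (rows), with circles for the 3 cerebellum arrays, squares for the 4 hippocampus arrays and open symbols where no array of the tissue detected the probe. Levels compare within a row and not between genes, and in every row all circles lie on 1 side of all squares, as the choice of genes required.

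Promoter windows from RefSeq (build GRCm38.p6) were read for these 30 genes. Each window has 300 bases, 250 before and 50 after a transcription start, and 13 of the 15 genes higher and 8 of the 15 lower in cerebellum had at least 1. Both strands were searched for CAGATG, an E-box of NeuroD-type factors, CACGTG, the E-box bound by Bhlhe40 and CLOCK, AGGTCA, the half-site of ROR and other nuclear receptors, and CAGCTG, a further E-box. CACGTG and CAGCTG read the same on both strands. The 4 windows below show at least 1 example of each motif, with every match in capitals and each window on its own gene's strand, 5′ to 3′. They are *Pcp2* at chr8:3625498-3625797 (minus strand, 1 of its 4 windows), *Zic1* at chr9:91365719-91366018 (minus strand), *Nrgn* at chr9:37552696-37552995 (minus strand) and *Camkv* at chr9:107935670-107935969 (plus strand).
Pcp2: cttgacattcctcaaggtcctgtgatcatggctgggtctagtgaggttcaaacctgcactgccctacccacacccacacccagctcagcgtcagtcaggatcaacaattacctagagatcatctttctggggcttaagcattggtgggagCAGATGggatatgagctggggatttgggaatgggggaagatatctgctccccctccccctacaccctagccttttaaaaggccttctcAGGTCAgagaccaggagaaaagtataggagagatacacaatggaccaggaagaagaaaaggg
Zic1: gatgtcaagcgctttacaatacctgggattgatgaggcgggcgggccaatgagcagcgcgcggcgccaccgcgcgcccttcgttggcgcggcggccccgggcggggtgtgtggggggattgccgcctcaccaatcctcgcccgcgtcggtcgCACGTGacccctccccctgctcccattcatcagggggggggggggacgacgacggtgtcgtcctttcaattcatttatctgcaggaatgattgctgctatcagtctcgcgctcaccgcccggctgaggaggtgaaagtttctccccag
Nrgn: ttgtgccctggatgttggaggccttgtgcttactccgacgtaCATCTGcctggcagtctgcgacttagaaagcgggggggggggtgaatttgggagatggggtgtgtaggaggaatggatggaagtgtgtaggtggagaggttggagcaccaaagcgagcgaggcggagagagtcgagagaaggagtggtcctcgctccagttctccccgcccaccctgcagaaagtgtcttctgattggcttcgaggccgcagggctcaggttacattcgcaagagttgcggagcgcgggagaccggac
Camkv: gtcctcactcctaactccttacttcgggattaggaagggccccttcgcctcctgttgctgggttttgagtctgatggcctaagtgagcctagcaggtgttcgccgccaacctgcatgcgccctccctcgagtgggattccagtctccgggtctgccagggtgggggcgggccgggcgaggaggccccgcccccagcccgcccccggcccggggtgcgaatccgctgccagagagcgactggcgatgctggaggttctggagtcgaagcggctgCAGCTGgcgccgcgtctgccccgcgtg

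The motifs differ from one another, and no printed match overlaps the next. The *Pcp2* window held CAGATG and AGGTCA, the *Zic1* window CACGTG, the *Nrgn* window CAGATG and the *Camkv* window CAGCTG, each on 1 or the other strand. CAGATG was found in a window of 3 of the 13 higher genes (*Pcp2*, *Chn2* and *Rgs8*) and of 1 of the 8 lower genes (*Nrgn*). CACGTG was found for *Zic1* and *Dao* among the higher genes and for 0 of the 8 lower genes. AGGTCA was found for 4 of the 13 (*Pcp2*, *Chn2*, *Rgs8* and *Dao*) and for *Crhbp* among the 8, and CAGCTG for 4 of the 13 (*Chn2*, *Rgs8*, *Patj* and *Dao*) and for *Camkv* among the 8. Of the 7983 tested genes with a window, 14.3% held CAGATG, 11.6% CACGTG, 14.9% AGGTCA and 18.2% CAGCTG in at least 1 window. Over all 32851 windows the shares were 17.2%, 7.2%, 16.3% and 16.3%. The higher genes had 26 windows and the lower genes 9, so more bases were searched for the former. These matches describe letters in a window and were not set against any measure of binding.

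A gene can stand in more than 1 list. The WT counts of every list stand beside 27.7% of all genes higher and 27.4% lower. KO counts stand beside 2962 genes higher and 2774 lower of the 9810 tested. Genes detected in no array of 1 tissue passed the detection filter through the other tissue alone, so their direction was largely fixed. That limit applies to such members of every list, named or not. Of the genes that passed, 113 higher and 318 lower in cerebellum had a fold given as a lower bound. Every tested gene of the granule cell list was higher in cerebellum, 14 of 14. The median log2 difference was 1.99 against 0.01 over all genes, and 27.7% of all genes were higher. Of the 14, *Gabra6*, *Barhl1* and *Fat2* passed the filter through the cerebellum arrays alone. Of the 16 listed genes, *Cbln3* and *Pax6* were not tested. Beside *Cbln1* and *Chn2*, the smallest differences of the list were in *Barhl1*, a homeobox gene of granule cell precursors (at least 1.59-fold), and *Fat2*, an atypical cadherin of granule cells (at least 1.17-fold), both undetected in hippocampus. The Purkinje cell list rose by a median of 2.22, in 12 of 12 tested genes of 22 listed. Of these, *Pcp2*, *Lhx1*, *Ppp1r17* and *Lhx5* passed the filter through the cerebellum arrays alone. The 2 smallest differences of the list were in *Slc1a6* and *Foxp2*. *Slc1a6*, the Purkinje cell glutamate transporter, read 501 to 606 against 226 to 327. The forkhead gene *Foxp2* read 196 to 229 against 154 to 183, with 1 hippocampus array detected. *Calb1* and *Pcp4*, which encode calbindin and a calmodulin-binding protein of Purkinje cells, were not detected often enough to be tested, and 8 listed genes had no named probe in the table used here.

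The Bergmann glia list had 4 of 4 tested genes higher, and 3 more listed genes were not tested. *Timp4*, an inhibitor of matrix proteases, read 5341, 4953 and 4861 in cerebellum and 1578, 1499, 1299.5 and 1350.3 in hippocampus (3.54-fold). *Ednrb*, the endothelin receptor B, differed 2.22-fold and *Slc1a3*, the glial glutamate transporter GLAST, 2.09-fold. Of 7 tested genes for cerebellar interneurons and unipolar brush cells, 4 were higher and 2 lower. Of the higher genes, *Tfap2b*, *Eomes* and *Tfap2a* passed the filter through the cerebellum arrays alone, which largely fixed their direction. *Pvalb*, the calcium buffer parvalbumin, read 22984, 22904 and 32579 in cerebellum against 2527, 2254, 2279 and 2228 in hippocampus (log2 3.47 ± 0.11, adjusted p = 4.2e-17). The lower genes were *Nxph1* (log2 -0.80 ± 0.10), a neurexin ligand, and *Sorcs3* (-0.96 ± 0.09), a sorting receptor, which forebrain neurons also use. Of the list for cerebellar nuclei and brainstem 2 genes were tested, and both passed with overlapping arrays. *Slc17a6*, the vesicular glutamate transporter VGLUT2, was higher by 0.32 ± 0.12 (adjusted p = 0.0241) but did not pass without the hippocampus array of replicate 3 or 4 or the cerebellum array of replicate 2 or 3 (adjusted p = 0.0669, 0.0678, 0.0741 and 0.228). *Tph2*, the serotonin-synthesising enzyme, was undetected in cerebellum and at least 1.13-fold higher in hippocampus, and did not pass with all 23 arrays in 1 fit (adjusted p = 0.466) or at the thresholds of the study.

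Pyramidal cell and dentate granule cell genes ran the other way. In the CA1 and CA3 list 11 of 12 tested genes were lower in cerebellum and 0 higher, beside 27.4% of all genes lower. The median was -1.67. Of the lower genes, *Spink8*, *Kcnq5*, *Iyd* and *Neurod6* passed the filter through the hippocampus arrays alone, which largely fixed their direction. *Fibcd1* and *Mpped1* were the farthest, and the smallest passed differences were in *Neurod6*, a pyramidal cell bHLH factor (at least 1.01-fold), and *Iyd*, an iodotyrosine deiodinase (at least 1.31-fold), both undetected in every cerebellum array and near background in hippocampus. All 4 tested dentate granule cell genes of 12 listed were lower (median -1.76), with *Trpc6* past the filter through the hippocampus arrays alone. *C1ql3*, a relative of *C1ql2*, fell by 1.93, the calcium channel gene *Trpc6* was at least 2.84-fold higher in hippocampus, and *Prox1*, the dentate granule cell homeobox factor, read 1109, 1048, 867 and 1016 in hippocampus against 849.9, 811 and 538 in cerebellum, a difference that did not pass without the cerebellum array of replicate 3 (adjusted p = 0.0504).

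The 6 genes of the CA2 list split 3 to 3. *Rgs14*, which restrains plasticity in CA2, was detected in no cerebellum array and was at least 2.79-fold higher in hippocampus. *Necab2*, a calcium-binding protein, fell by 2.39 on the log2 scale, and 1 of 3 cerebellum arrays detected it. *Cacng5*, an auxiliary AMPA receptor subunit, was higher in cerebellum (1964, 2119.5 and 1795 against 988, 832, 1081 and 873), and so was *Stard5*, a lipid transfer protein, by 0.44 ± 0.13, which did not pass without the cerebellum array of replicate 3 (adjusted p = 0.105). The 11 tested genes of forebrain interneurons also split, with 5 higher and 6 lower. The peptides were low in cerebellum, *Vip* reading 909 to 1342 in hippocampus and 135, 176 and 199 in cerebellum, with *Sst* as above. *Calb2*, the calcium buffer calretinin that cerebellar granule cells also hold, read 20036, 21726 and 22600.0 in cerebellum against 4083, 2530.2, 3049 and 2694 in hippocampus, and *Slc32a1*, the vesicular GABA transporter, read 12886, 14060.0 and 12837 against 7420.5, 5860.2, 7262 and 7237.

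Of 17 tested hindbrain and cerebellar factors, 15 were higher in cerebellum and 2 lower, with a median of 1.77. A further 8 listed genes were not tested. Of the higher genes, *Tfap2b*, *Lhx1*, *Irx2*, *Lhx5*, *Uncx*, *Irx5* and *Barhl1* passed the filter through the cerebellum arrays alone, which largely fixed their direction. The members lower in cerebellum were *Meis2*, a homeobox gene also used in the forebrain, at 431, 412 and 509.9 in cerebellum and 1584, 1558, 1317 and 1555 in hippocampus (log2 -1.74 ± 0.10), and the LIM homeobox gene *Lhx9*, undetected in cerebellum (at least 1.16-fold higher in hippocampus). Of 20 tested forebrain factors, 16 were lower and 2 higher in cerebellum (median -0.78). Of the lower genes, *Neurod6*, *Dlx2*, *Lhx2*, *Tbr1* and *Fezf2* passed the filter through the hippocampus arrays alone, which largely fixed their direction. *Fezf2*, a determinant of deep-layer projection neurons, was detected in no cerebellum array and was at least 5.39-fold higher in hippocampus. The members higher in cerebellum were *Zbtb18*, a zinc finger repressor (log2 0.43 ± 0.12), and *Id2*, an inhibitor of bHLH factors (0.31 ± 0.09), which did not pass as the mean of its probes (adjusted p = 0.441).

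The lists for other brain regions hold several genes that stand in the cerebellar or hippocampal lists too. Of 10 tested cortical layer genes 4 were higher and 5 lower in cerebellum, led by *Etv1* (1.41 ± 0.10) and *Cux1* (1.27 ± 0.11) on one side and by *Fezf2* and *Ccn2* (-0.78 ± 0.09) on the other. The striatal list had 1 gene higher, the phosphatase regulator gene *Ppp1r1b* (3577, 3286 and 3744 against 1153, 1083, 1142 and 1168), which Purkinje cells also express. It had 3 lower of 5 tested, the dopamine receptor gene *Drd1* (-0.96), the tachykinin gene *Tac1* (-1.09) and *Rgs9* (-1.42). *Drd1* was detected in 1 of 3 cerebellum arrays. The thalamic list had 6 of 7 tested genes higher in cerebellum, led by *Calb2* and by *Rora*, the nuclear receptor that Purkinje cells need to mature (7061, 8354 and 6822 against 1204, 1299.7, 1154 and 1228). *Rgs16*, a regulator of G protein signalling, was also higher (0.47 ± 0.10). *Tnnt1*, a troponin gene, was lower (-0.19 ± 0.07), but not without the hippocampus array of replicate 4 (adjusted p = 0.0701) or the cerebellum array of replicate 2 or 3 (0.17 and 0.11).

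Of 11 tested microglial genes 10 were lower and 0 higher in cerebellum, with a median of -0.86. *Cx3cr1*, the fractalkine receptor, read 419, 416 and 406 in cerebellum against 1340.1, 1144, 1139 and 1099 in hippocampus (2.85-fold), and the complement gene *C1qc* read 555, 428 and 426 against 1004, 1045, 1042 and 1173. The smallest passed differences were in *Tyrobp* (-0.39 ± 0.07), a signalling adaptor, and *Tmem119* (-0.43 ± 0.08), a microglial surface protein, and cortex held *Cx3cr1* at 817 to 1024. The summed signal of the list was 3189 to 3758 in the cerebellum arrays and 6305 to 6781 in the hippocampus arrays.

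Astrocyte genes split, with 7 higher and 5 lower of 14 tested. *Agt*, which encodes angiotensinogen, was higher in cerebellum (1613, 1732 and 1532 against 601, 725, 646 and 622), as was *Slc1a3*. *Slc1a2*, the glutamate transporter GLT-1, was lower (1028, 881 and 710.0 against 1869.6, 1883, 1761 and 1775), and so was the intermediate filament gene *Gfap* (420.2, 423 and 379 against 926, 809.9, 927 and 777). The glial glutamate transporters thus differed in opposite directions. Of 14 oligodendrocyte genes 2 were higher and 4 lower. The progenitor receptor gene *Pdgfra* (-0.98 ± 0.10) and the myelin gene *Mal* (-0.83 ± 0.09) were lower, and 8 members did not pass. The 2 genes higher, *Cnp* (0.27 ± 0.10, adjusted p = 0.0218) and *Ugt8a* (0.25 ± 0.10, adjusted p = 0.0423), both of myelin, lost the call with the mouse as a fixed block (adjusted p = 0.108 and 0.115) and when any 1 of several arrays was left out. With arrays left out, the highest adjusted p was 0.0896 for *Cnp*, without the hippocampus array of replicate 2, and 0.184 for *Ugt8a*, without the cerebellum array of replicate 2. In the endothelial list 2 of 11 genes were higher, the transporter genes *Slco1a4* (0.31 ± 0.11) and *Slc7a5* (0.28 ± 0.10), and 1 lower, the lipid transporter gene *Mfsd2a* (-0.57 ± 0.11). Without the hippocampus array of replicate 1 neither of the higher genes passed (adjusted p = 0.0851 and 0.0569), and each was also lost without other single arrays, up to 0.104 and 0.0871 without the cerebellum arrays of replicates 2 and 3. Blood genes were higher for 2 of 3, with *Hba-a1*, a haemoglobin gene, at 6034 to 6857 in cerebellum and 3244 to 4774 in hippocampus. The other higher gene, *Alas2* (0.28 ± 0.09), had overlapping arrays and did not pass without the cerebellum array of replicate 1 (adjusted p = 0.067). *Hbb-bt*, also a haemoglobin gene, did not pass (-0.05 ± 0.11, adjusted p = 0.739). The meningeal list had 2 of 8 genes lower, *Dcn* (-1.02 ± 0.11) and *Lum* (-0.44 ± 0.12), both proteoglycans of the extracellular matrix. In the ependymal list 3 of 5 genes were lower and 1 higher in cerebellum. The cilium gene *Rsph1* (-0.83 ± 0.11) was the lowest. The other lower genes, *Dynlrb2* (-0.31 ± 0.10) and *Mlf1* (-0.20 ± 0.08), did not pass without the hippocampus array of replicate 1 (adjusted p = 0.0521 and 0.134), nor did *Mlf1* without the cerebellum array of replicate 3 (0.169). *Rarres2*, the higher gene (0.27 ± 0.10), was lost with the mouse as a fixed block (adjusted p = 0.0641) and without any 1 of 4 arrays, up to 0.214 without the cerebellum array of replicate 1. In KO mice 1 gene of the list was higher and 1 lower.

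Choroid plexus genes varied widely between the hippocampus arrays. *Ttr*, the thyroid hormone carrier transthyretin, singled out after its values were seen, read 13053, 809, 42474 and 2935 in the hippocampus arrays and 19625, 26565 and 15509 in the cerebellum arrays (log2 1.66 ± 0.69, adjusted p = 0.0468). The hippocampus array of replicate 3 was the highest of the 4 for *Ttr* and for the other 4 members that passed, followed by that of replicate 1. Of 12 tested genes 4 were higher and 1 lower in cerebellum, and in KO mice 1 was higher and 1 lower. *Otx2*, a homeobox gene of the choroid plexus, read 1214, 1002 and 954 in cerebellum and 275, 172, 487 and 167 in hippocampus (log2 2.06 ± 0.23), with no overlap. *Clic6*, a chloride channel, read 1686, 2308 and 1637 against 608, 217, 1502 and 243, also with no overlap. *Kcne2*, a potassium channel subunit, overlapped (440.4, 493 and 264 against 256, 202, 403 and 173) and did not pass without the cerebellum array of replicate 1 (adjusted p = 0.0861). *Kl*, which encodes klotho, overlapped as well (494, 768 and 318 against 686, 587, 1500.4 and 590.3, adjusted p = 0.0254) and did not pass without the hippocampus array of replicate 3 (adjusted p = 0.0669) or the cerebellum array of replicate 1 or 3 (0.14 and 0.246). The call of *Ttr* was lost without the hippocampus array of replicate 2 or 4 or without any cerebellum array, up to an adjusted p of 0.183. A fit without the mouse block left out the hippocampus arrays of replicates 1 and 3, chosen for their high *Ttr*. These arrays were also the highest for the other members that passed, so a shift of these genes toward cerebellum was fixed by the choice. The difference was then 3.70 for *Ttr*, 2.63 for *Otx2*, 3.01 for *Clic6* and 1.04 for *Kcne2*, which is no test of these genes. For *Kl* it was -0.25, which did not pass (adjusted p = 0.319). In that fit the counts over all genes were 2107 higher and 2235 lower in cerebellum, against 2635 and 2630 with all 7 arrays and no block.

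**Figure D2:**
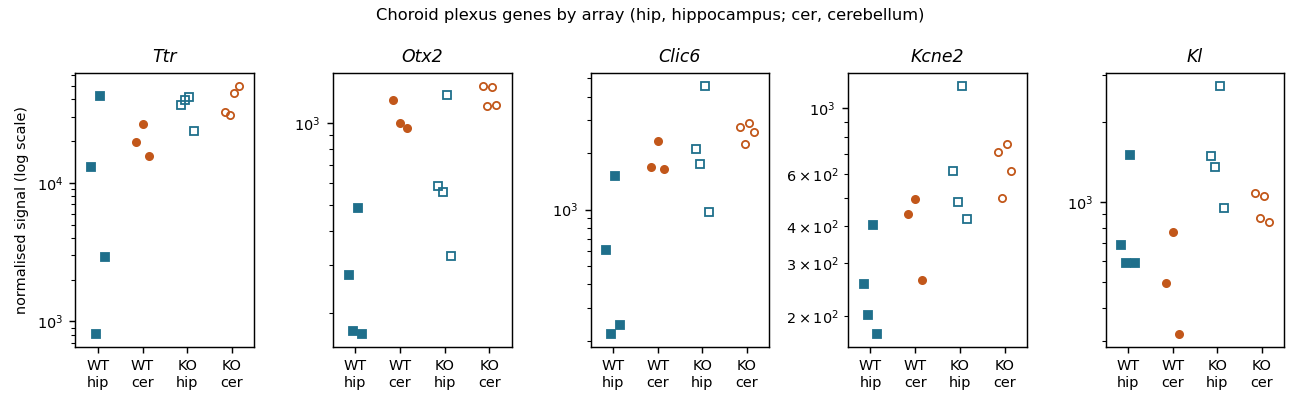
Normalised signal (y axis, log scale) of 5 choroid plexus genes in each hippocampus (squares) and cerebellum (circles) array of WT (filled) and KO (open) mice. The WT hippocampus arrays spread from 809 to 42474 for Ttr, while the KO hippocampus arrays lie between 23573 and 41807.

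**Figure D3:**
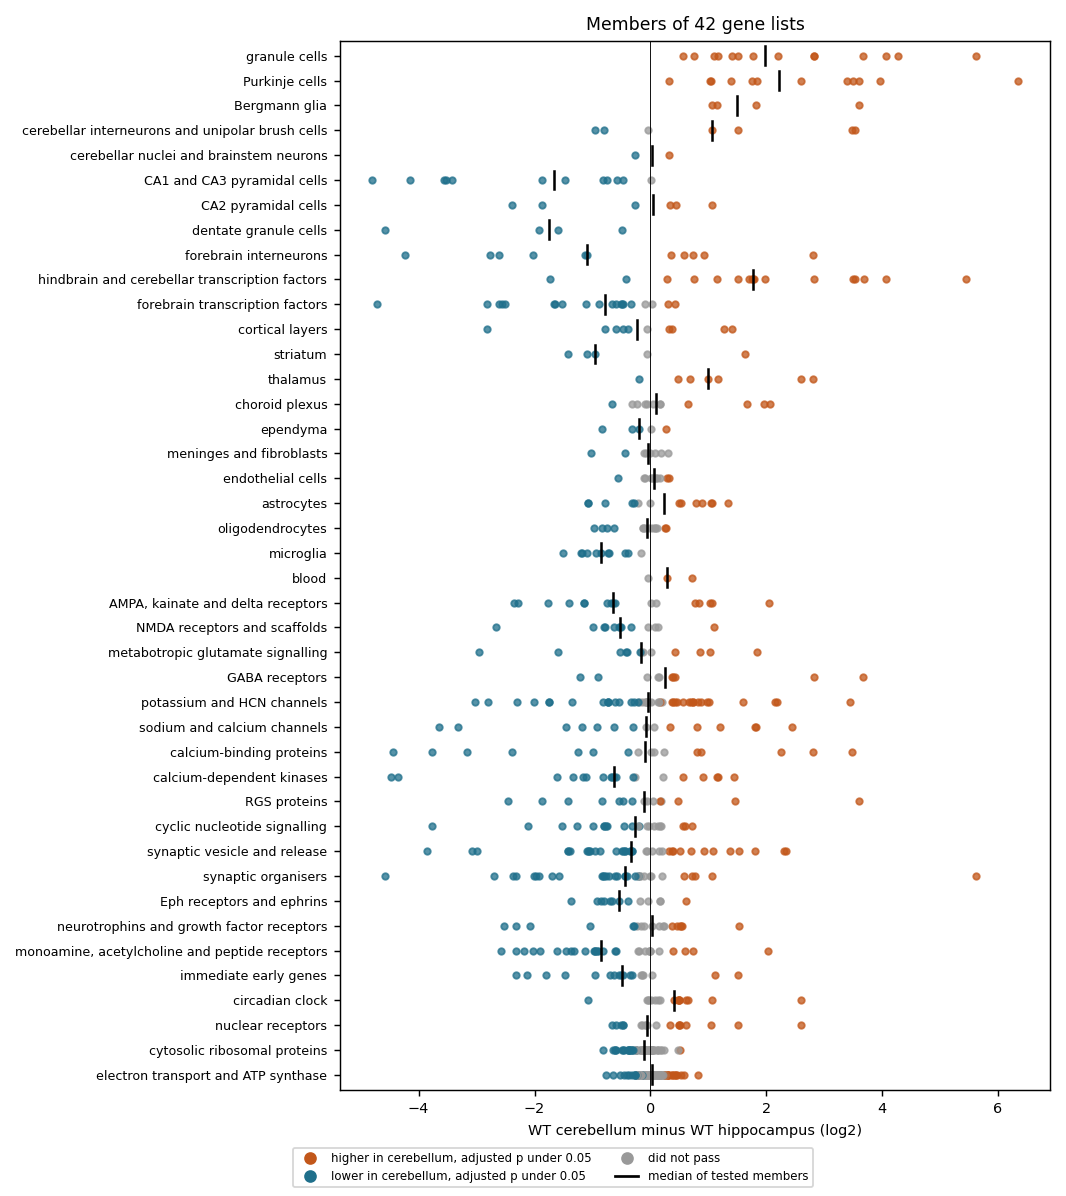
Log2 difference between WT cerebellum and WT hippocampus (x axis) for every tested member of 42 gene lists (rows), coloured by the call at an adjusted p under 0.05, with a bar at the median of the list. The granule cell, Purkinje cell and Bergmann glia members all lie above 0, and the dentate granule cell members all below 0.

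Fast glutamate currents pass through AMPA receptors, tetramers of 4 possible subunits with auxiliary proteins of the TARP and cornichon types. *Gria4* was higher in cerebellum, at 975, 1292 and 1212 against 261, 236, 278 and 340.5 in hippocampus (log2 2.05 ± 0.13, adjusted p = 3e-12). The other 3 subunit genes were lower. *Gria1* read 2364, 2852 and 2338 in cerebellum and 5917, 5172, 5635 and 5373 in hippocampus (log2 -1.14 ± 0.09), and *Gria2* and *Gria3* differed by -0.61 ± 0.10 and -0.68 ± 0.12. All 4 genes had arrays that did not overlap. Among the TARP genes, *Cacng2*, known as stargazin, was higher in cerebellum (781, 514 and 673 against 259, 321, 369 and 323), as were *Cacng5* (1.05 ± 0.10) and *Cacng7* (0.83 ± 0.12). *Cacng3* was lower (348, 301 and 299 against 1116, 1020.1, 1060.0 and 1074), and *Cacng8*, the TARP of hippocampal synapses, was undetected in cerebellum and at least 1.37-fold higher in hippocampus. *Cacng4* did not pass the test (0.10 ± 0.10, adjusted p = 0.401). In the whole list of AMPA, kainate and delta receptor genes 5 of 17 were higher and 10 lower in cerebellum, the lowest being *Neto1*, an auxiliary kainate receptor subunit (at least 4.12-fold higher in hippocampus), and the cornichon gene *Cnih3* (188 to 210.2 against 857 to 1119.7).

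NMDA receptor and scaffold genes were lower in cerebellum for 9 of 13 and higher for 1. The exception was *Grin2c*, the NMDA receptor subunit of mature granule cells, which read 816, 262 and 502 in cerebellum and 218, 262, 219 and 198 in hippocampus, so that the cerebellum array of replicate 2 lay at the level of the highest hippocampus array (log2 1.10 ± 0.21, adjusted p = 0.000118). *Grin2a* and *Grin2b* were undetected in cerebellum and close to background in hippocampus, at least 1.01-fold and 1.12-fold higher there. The postsynaptic scaffold gene *Dlgap2* read 194, 199 and 213 in cerebellum against 1432, 1314, 1247 and 1156 in hippocampus, and *Dlg4*, which encodes PSD-95, 1118, 955 and 1047 against 1949, 2124, 2349.6 and 1882. *Homer1*, a scaffold of metabotropic receptors, was lower by its brightest probe (-0.63 ± 0.09), and 1 other probe of the gene passed in the opposite direction.

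The metabotropic glutamate pathway signals through Gq, phospholipase C beta and TRPC channels. Of its 13 tested genes 4 were higher and 6 lower in cerebellum, beside 27.7% and 27.4% of all genes. *Plcb4*, the isoform of most Purkinje cells, read 889, 976 and 954 in cerebellum and 244, 218, 306 and 292 in hippocampus, and *Plcb3* read 741, 747 and 769.6 against 383, 366, 366 and 366, with no overlap in either. *Plcb1* was undetected in every cerebellum array and passed the other way (adjusted p = 0.0349, at least 1.09-fold higher in hippocampus), with overlapping arrays. That call was lost without any 1 of 5 arrays, up to an adjusted p of 0.152 without the cerebellum array of replicate 1, and with the mouse as a fixed block (0.0614). The channel gene *Trpc4* was lower in cerebellum (190.2, 203 and 224 against 1671, 1485, 1554 and 1702), as was *Trpc6*.

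GABA-A receptors of granule cells pair the alpha 6 subunit with the delta subunit. Both genes were higher in cerebellum, *Gabra6* at 1680.3, 2053 and 1782 against 136, 143, 155 and 142 in hippocampus, where it was not detected, and *Gabrd* at 5131, 4416 and 5414 against 668, 797, 693 and 659 (log2 2.83 ± 0.10, adjusted p = 1.04e-16). *Gabra3* (282, 373 and 331 against 633, 642, 592 and 571) and *Gabrb1* (1459.5, 1399 and 1146 against 2831, 2926, 3274 and 3249.9) were lower, and *Gabra4* did not pass (0.13 ± 0.07, adjusted p = 0.11). Of the 22 listed GABA receptor genes 10 were tested, 5 of them higher and 2 lower.

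Voltage-gated channel genes moved in both directions. Of 45 potassium and HCN channel genes 18 were higher and 16 lower in cerebellum. *Kcng4*, a modifier subunit of Kv2 channels, read 2185, 2411 and 2045 in cerebellum against 206, 216, 204 and 191 in hippocampus, and *Kcnt1*, the sodium-activated channel Slack, 1103, 934 and 1356 against 229.7, 269, 244 and 249. *Kcnf1*, a silent Kv subunit, read 228, 230.0 and 216 against 1843, 1926, 1712 and 1834, and the inward rectifier gene *Kcnj4* 180.5, 188 and 214 against 1396, 1229.6, 1330.3 and 1436. The sodium and calcium channel list had 6 higher and 7 lower of 15. *Cacna1a*, the P/Q-type channel of Purkinje cells, was higher in cerebellum (1062, 899.6 and 1321 against 339.7, 286, 333 and 263), and so was the T-type gene *Cacna1g* (2871, 2721 and 3371 against 605, 500.1, 487 and 609). The other T-type gene tested, *Cacna1h*, was lower (281, 289 and 293 against 2841, 2941, 2924 and 2763, 9.95-fold). *Scn3b*, a sodium channel beta subunit, fell by 3.64 on the log2 scale, and 1 of 3 cerebellum arrays detected it.

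In the list of calcium-binding proteins 5 of 16 were higher, led by *Pvalb* and *Calb2*, and 7 lower, led by *Nrgn* and by *Hpca*, the hippocampal sensor hippocalcin (1396, 1023 and 1449 in cerebellum against 15963, 17037, 19709 and 17301). Among calcium-dependent kinase genes 5 of 19 were higher and 12 lower. *Camk2d* (1.45 ± 0.12), *Camk4* (at least 1.63-fold, undetected in hippocampus) and the protein kinase C gene *Prkcd* (1.17 ± 0.12) were higher in cerebellum. *Camk2a* was 20.5-fold lower, whereas its partner subunit gene *Camk2b* did not pass (14073, 16258 and 20110.0 against 17114, 19084, 23448 and 20374, adjusted p = 0.109), though it passed with quantile normalization (adjusted p = 0.0025), with neqc background correction (adjusted p = 0.00255), with the mouse as a fixed block (adjusted p = 0.0476) and without the cerebellum array of replicate 3 (adjusted p = 0.0197). The RGS list had 4 of 15 higher, led by *Rgs8* and *Rgs3* (1.47 ± 0.11), and 7 lower, led by *Rgs4* (998, 895 and 1022 against 5918, 5279.6, 5481 and 4776) and *Rgs14*. The share higher was near the 27.7% of all genes. Cyclic nucleotide genes were lower for 12 of 22 and higher for 3. *Pde1a*, a calmodulin-dependent phosphodiesterase, read 245, 269 and 224 in cerebellum against 3647, 3618, 3110.5 and 3145 (13.7-fold), and *Pde2a* fell by 2.11. The cyclases *Gucy1a1* (0.72 ± 0.11) and *Adcy1* (0.61 ± 0.11) were higher.

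**Figure D4:**
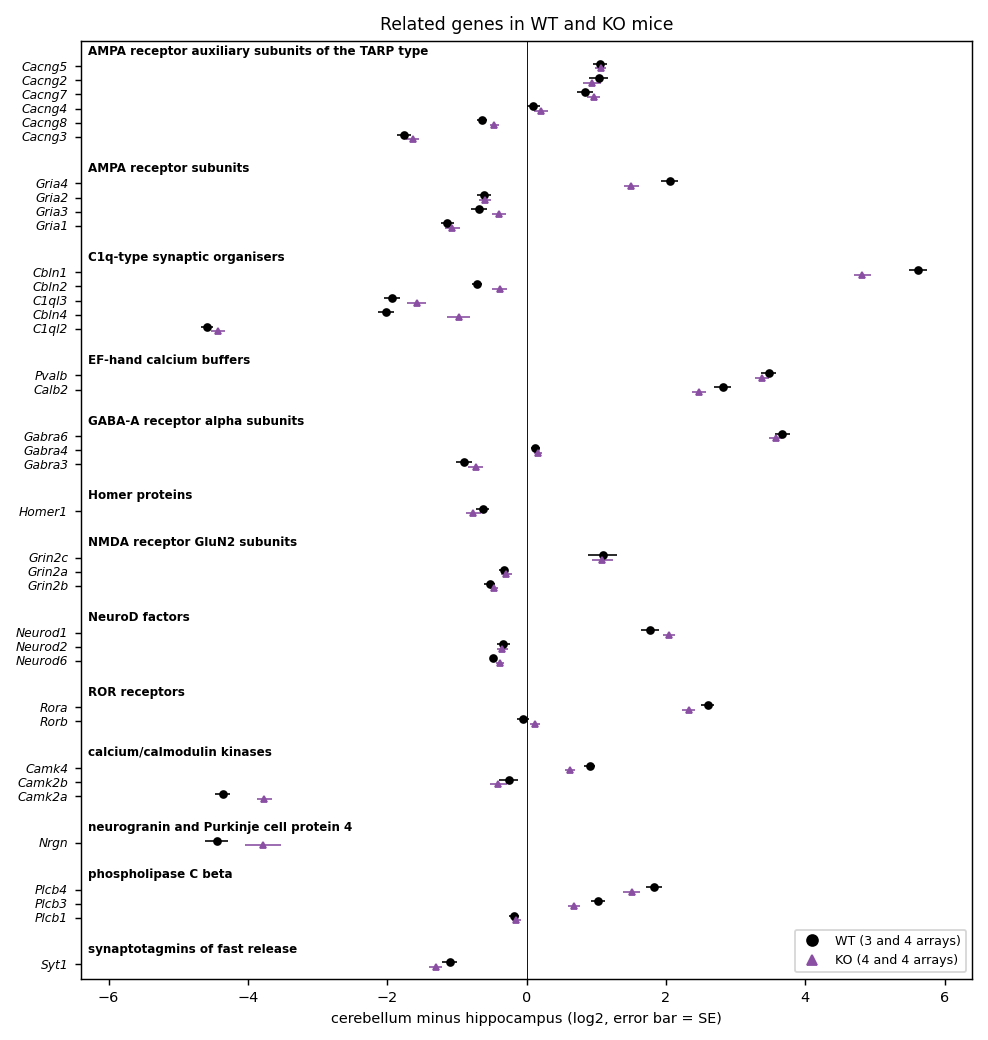
Cerebellum minus hippocampus difference (x axis, log2, error bars are SE) for tested members of sets of related genes in WT (circles, 3 and 4 arrays) and KO (triangles, 4 and 4 arrays) mice. Members of several sets lie on both sides of 0, as for Gria4 at 2.05 and Gria1 at -1.14 in WT mice, and members undetected in 1 tissue are drawn at the fitted difference.

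Synaptic vesicle and release genes were lower in cerebellum for 21 of 38 and higher for 12. *Stx1a*, the plasma membrane SNARE syntaxin 1A, read 255, 310.0 and 258 in cerebellum against 3560.2, 3562, 4283 and 4496 in hippocampus (14.5-fold), and *Syt16*, a synaptotagmin relative, 301, 390.0 and 356 against 2954, 3338, 2678 and 2796. *Syt1*, the calcium sensor of fast release in forebrain neurons, was lower by -1.10 ± 0.11. Its relative *Syt9* was higher (1711, 1798 and 1674 against 394, 356, 335 and 321), and so was *Unc13c*, a priming factor of granule cell terminals (1875, 1717 and 1570.4 against 349.9, 339, 304 and 361). Among synaptic organisers 21 of 33 were lower and 5 higher. The C1q-type ligands differed in direction, with *Cbln1* as given above on the cerebellar side. On the hippocampal side were *C1ql2*, *C1ql3* (196, 247 and 218 in cerebellum against 920.0, 702, 805 and 916), *Cbln4* (263, 251 and 235 against 979, 988, 896 and 1197) and *Cbln2*, undetected in cerebellum (at least 1.37-fold). The neurexin ligands *Lrrtm1* and *Lrrtm3* also went opposite ways, *Lrrtm1* at 298, 277 and 313 against 1880.2, 2023, 1777 and 1998 and *Lrrtm3* at 878, 728 and 878 against 398, 402, 341 and 447.

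Among the genes tested, receptors for modulators were mostly lower. Of 30 tested genes for monoamine, acetylcholine and peptide receptors 18 were lower and 4 higher in cerebellum. A further 20 were not detected often enough. Of the lower genes, *Drd5*, *Htr1f*, *Chrm1*, *Ntsr1*, *Chrna5*, *Htr3a*, *Htr5b*, *Npy5r*, *Npy2r*, *Chrm3* and *Htr1a* were detected only in hippocampus. They passed the filter through that tissue alone, so their direction was largely fixed by it. *Htr1a*, the serotonin 1A receptor, and *Chrm3*, a muscarinic receptor, were detected in no cerebellum array and were at least 5.35-fold and 4.34-fold higher in hippocampus. *Crhr1*, the receptor for corticotropin-releasing hormone, read 1363, 901 and 1047 in cerebellum against 262, 272, 273 and 254 in hippocampus, opposite to *Crhbp*, which binds the same hormone. The cannabinoid receptor gene *Cnr1* was higher by 0.74 ± 0.12. Eph receptor and ephrin genes were lower for 8 of 13 and higher for 1, *Ephb1* (0.61 ± 0.09), with *Epha7* the lowest (735, 650.2 and 626 against 1696, 2109, 1502 and 1668). Of 19 tested growth factor genes 6 were higher and 6 lower, close to the 27.7% and 27.4% over all genes. *Fgf1* read 3772, 4573 and 3602 in cerebellum against 1358, 1459, 1326 and 1334, while *Fgf13*, an intracellular sodium channel partner (1219.9, 1467 and 1155 against 6944, 8218, 7080.5 and 7241), and the binding protein gene *Igfbp4* (-2.31 ± 0.10) were lower.

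Immediate early genes, which neurons switch on with activity, were lower in cerebellum for 12 of 18 and higher for 2. *Fos* read 1027, 1892 and 1212 in cerebellum and 476, 511, 417 and 465 in hippocampus, and the phosphatase gene *Dusp1* 3055, 5188 and 4089.5 against 1785, 1881, 1801 and 1998. For both, every cerebellum array was above every hippocampus array and replicate 2 was the highest. *Junb* was lower (281, 310.4 and 359.9 against 1322, 1279, 1584 and 1357), and *Nptx2*, a secreted synaptic pentraxin, was at least 4.73-fold higher in hippocampus. Clock genes were higher in cerebellum for 9 of 17 and lower for 1. *Rora*, an activator within the clock loop, led, followed by *Nfil3*, a repressor of D-box genes (1789, 1654 and 1356 against 828, 741, 675 and 794). The gene that was lower was *Npas2*, a forebrain relative of *Clock* (222, 223 and 205 against 492, 429, 467 and 444), and *Per2* was higher by 0.40 ± 0.09. *Bhlhe40*, which represses clock genes, did not pass, as given above. All mice were dissected in 1 window of the day, so no rhythm was measured. Nuclear receptor genes were higher for 8 of 19 and lower for 5, with *Rora* (2.60 ± 0.09) and *Esrrb* (643, 601 and 498 against 202, 226, 194 and 193) higher, *Nr2e1* (-0.66 ± 0.08) and *Nr2f2* (-0.59 ± 0.08) lower, and *Rorb* not past the test (-0.05 ± 0.09, adjusted p = 0.638).

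Housekeeping lists had fewer calls than the background of 55.1%. Of 56 cytosolic ribosomal protein genes 18 passed (32.1%), 1 higher and 17 lower in cerebellum, with a median of -0.12. *Rps2* was the lowest (5764, 5091 and 6316 against 9084, 8924, 13196 and 9475), with the hippocampus array of replicate 3 above the others, and *Rps15a* was the gene higher (0.50 ± 0.11). Ribosomal genes have near-identical pseudogenes, so these values are uncertain. The balance of the list was opposite in KO mice, with 25 higher and 11 lower in cerebellum. Over all 9810 genes, 2962 were higher and 2774 lower in KO mice. Of 79 genes of electron transport and ATP synthase 28 passed (35.4%), 16 higher and 12 lower, from *Cox7a1* (0.82 ± 0.08) to *Ndufb9* (-0.76 ± 0.11). In KO mice 44 genes of this list were higher and 5 lower. The genotypes were compared by a test only gene by gene, not list by list.

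The same comparison in KO mice, with 4 arrays of each tissue that share none with the WT comparison, found 5736 genes (58.5%), 2962 higher and 2774 lower in cerebellum. In both genotypes 2120 genes were higher and 2166 lower, and 29 passed in opposite directions. Of the 894 genes that differed over 2-fold in WT mice, 890 passed in the same direction in KO mice, 682 of them by more than 2-fold. All 30 genes of the largest WT differences passed in the same direction. The difference between the genotypes was itself tested over the 15 arrays, and the tissue difference of 266 genes (2.71%) differed between WT and KO, with a median size of 0.56. It was smaller in KO for 164 of these genes and larger for 102, and 197 of them had passed in WT mice, 71 by more than 2-fold.

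*Sst* had a difference of -4.23 ± 0.15 in WT and -2.75 ± 0.26 in KO (adjusted p of the difference = 0.0267). *Meis2* had -1.74 ± 0.10 and -0.61 ± 0.16 (adjusted p = 0.00813), *Cbln4* -2.02 ± 0.11 and -0.98 ± 0.16 (adjusted p = 0.0137), and *Gfap* -1.08 ± 0.11 and -0.25 ± 0.09 (adjusted p = 0.00301). In these 4 genes the tissues lay closer together in KO mice. The calls of *Meis2*, *Cbln4* and *Gfap* held without any 1 of the 15 arrays, whereas that of *Sst* was lost without the WT cerebellum array of replicate 2, among others (highest adjusted p = 0.0783). For *Cbln1*, 5.62 ± 0.13 in WT stood beside 4.82 ± 0.12 in KO (adjusted p = 0.0316), and for *En2* 5.44 ± 0.10 beside 4.94 ± 0.07 (adjusted p = 0.0267). Both calls were lost without some arrays, up to an adjusted p of 0.0826 for *Cbln1* and 0.0964 for *En2*, and *Cbln1* did not pass with quantile normalization (adjusted p = 0.0957). The count of 266 depended on single arrays. It was 60 without the WT cerebellum array of replicate 2, 557 without that of replicate 1, 91 and 166 without the WT hippocampus arrays of replicates 1 and 2, 98 without the KO hippocampus array of replicate 1, and 116 and 161 without the KO cerebellum arrays of replicates 1 and 4. The summed signal of the granule cell list was 91018 to 111887 in the WT and 73531 to 84550 in the KO cerebellum arrays, and that of the choroid plexus list was 25661 to 38496 and 45763 to 69443. Their part in these differences was not tested.

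**Figure D5:**
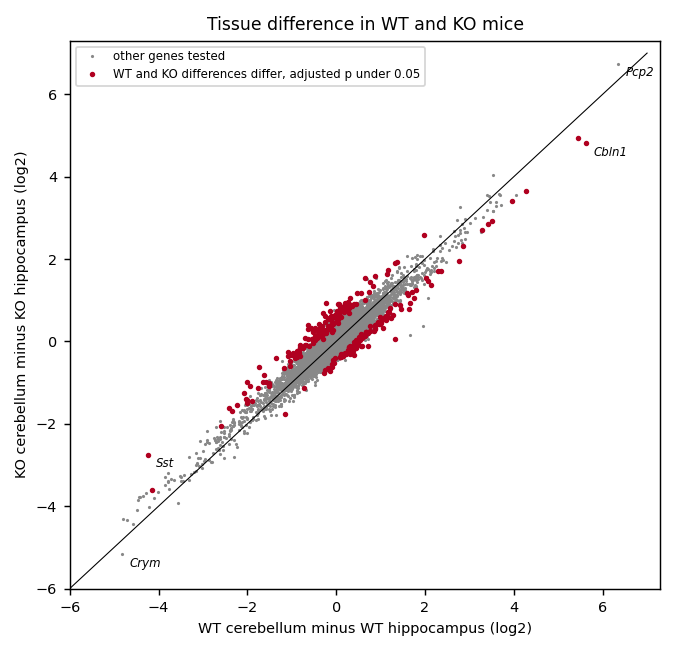
Cerebellum minus hippocampus difference of each of the 9810 genes in KO mice (y axis, log2) against WT mice (x axis, log2), with the line of equality and the 266 genes whose difference differed between genotypes in red. Pcp2 and Crym lie at the ends in both genotypes, and Sst lies at -4.23 in WT and -2.75 in KO.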

How the data were processed

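RNA of hippocampus, cortex and cerebellum was read on Illumina mouse Ref8 BeadChips, 1 array for each sample. The authors extracted the deposited bead intensity of each probe, without normalization, and a detection p-value with GenomeStudio 2011.1, per the labels and the file headers. The deposited value table holds a Z score of each probe within its array, computed by the authors. These scores lay within 9.96e-05 of scores recomputed here from the log2 intensity, and they served as an alternative.

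Here the log2 intensity was Z normalised within each array over 25697 probes and returned to the log2 scale with 1 common SD (1.57) and 1 common mean (8.43), the averages over the 23 arrays. Each gene was read by the probe of highest mean among those detected at p under 0.05 in at least 3 of 7 WT arrays. The platform annotation assigned probes to genes (23978 probes with 1 symbol, 1719 with none). For 23962 probes the RefSeq symbol of the same gene identifier was used, and otherwise the platform symbol. The WT tissues were compared with limma 3.58.1 in R 4.3.3 (lmFit, eBayes with a trend), with the mouse as a random block (consensus correlation 0.08) and Benjamini-Hochberg adjustment over all genes tested. KO mice and the difference between the genotypes were fitted in the same way. The animal code of the deposited column names pairs the tissues of a mouse. Deviations from the tissue means correlated at 0.20, -0.06 and 0.11 within the 3 paired mice. Each mouse gave 1 array for each tissue, and the number of arrays limits the precision. The fit was tested on simulated data.

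Named genes were the 15 with the largest difference in each direction that passed, did not overlap and were detected in every array of the higher tissue; up to 2 of the highest and 2 of the lowest members that passed in each list; the tested members of the sets of related genes; and *Bhlhe40*. The comparison, the gene lists and the rule were chosen with earlier results of these data known. Alternatives were quantile normalization, neqc background correction (offset 16), the deposited scores, other detection filters, the mean of the probes of a gene, no block or a fixed block for the mouse, all 23 arrays in 1 fit, the thresholds of the study and leaving out each array. After the data were seen, a fit without the 2 hippocampus arrays of highest *Ttr*, and without the block, was added.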

Additional observations from a re-analysis of the deposited data

Results flagged for a closer look

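Among the 4 WT hippocampus arrays, 1 array stood apart from the others by Dixon's ratio for 7 of the 174 named genes that were checked. Chance alone flags about 1 in 20 groups. Replicate 3 was high for *Kl* (1500 against 587 to 686) and for *Rps2* (13200 against 8920 to 9480), and low for *Meis2* (1320 against 1560 to 1580). Replicate 1 was high for *Nr2f2* (348 against 298 to 306), for *Plcb3* (383 against 366 in each of the others) and for *Ugt8a* (1110 against 936 to 957). Replicate 2 was low for *Slc32a1* (5860 against 7240 to 7420). The values are normalised signals. Replicate 3 also had the highest normalised signal of *Ttr*, a choroid plexus gene, of the 4 arrays, at 42474, and the part of choroid plexus RNA in its other values was not tested.

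The tissue difference of 13 named genes differed between WT and KO mice in the limma fit over all 15 arrays. It moved toward hippocampus in KO mice for 7 genes that were higher in WT cerebellum, by -0.543 for *Atp2a3* (adjusted p = 0.0178), -0.805 for *Cbln1* (0.0316), -0.612 for *Chn2* (0.0221), -0.518 for *Clock* (0.0228), -0.508 for *En2* (0.0267), -0.571 for *Lhx1* (0.0263) and -0.584 for *Syt9* (0.0288). It moved toward cerebellum for 5 genes that were lower in WT cerebellum, by 1.04 for *Cbln4* (0.0137), 0.823 for *Gfap* (0.00301), 1.13 for *Meis2* (0.00813), 0.553 for *Mpped1* (0.0441) and 1.48 for *Sst* (0.0267). For *Cox7a1*, higher in cerebellum in both genotypes, it grew by 0.53 (0.0351). *Lhx1* was not detected in any WT hippocampus array, so its change is measured against a signal not above background. The calls of *Atp2a3*, *Cbln4*, *Gfap* and *Meis2* held without any 1 of the 15 arrays. Those of the other 9 genes were lost without at least 1 array, with a highest adjusted p of 0.0725 to 0.124. In the same fit with quantile normalization, *Mpped1* and *Cbln1* did not pass (adjusted p = 0.0687 and 0.0957).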

How the results depend on the processing

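The counts of genes higher and lower in WT cerebellum, and those in KO mice, stayed within 1.5 times of their values under every alternative run. With neqc background correction, the genes over 2-fold rose to 790 higher and 929 lower. Without each array in turn the WT counts ranged from 2384 to 2686 higher and from 2451 to 2744 lower. Without the replicate block 2635 genes were higher and 2630 lower, and with the mouse as a fixed replicate block 2556 and 2572, and of the 5408 calls 5015 were kept in the latter. The count of tissue differences that differed between genotypes was 353 with quantile normalization, 216 without the block and 60 to 557 without 1 array. Of 183 named genes 160 kept their call and direction under every alternative that tested them. The reversals were in genes that had not passed, over -0.119 to 0.0133 for *Rorb* and -0.108 to 0.0233 for *Bhlhe40* without 1 array, positive without the hippocampus array of replicate 1 and the cerebellum array of replicate 1. Signals near background limit the folds of undetected probes, and the 3 cerebellum arrays limit the precision. The cause of these changes was not tested.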
